A study of Zea mays with 448 samples.

Results

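The region described here is a stretch of 50 Mb of maize chromosome 1 that begins at 65 Mb in B73 genome version AGPv2, the span given for Inv1n, an inversion of teosinte (Zea mays ssp. parviglumis), the wild relative from which maize was domesticated. Its members were chosen by position alone. They are 8509 sites at which a maize and a teosinte inbred differ, in 909 gene models, out of 82977 sites in 8120 genes on chromosome 1 and 530935 sites in 53793 genes in all. The rest of chromosome 1, with 74468 sites in 7211 genes, was the comparison. An inversion turns a stretch of chromosome end to end. In a plant that carries both arrangements, crossing over between them is suppressed, so that the 2 arrangements can keep different sets of variants along the whole stretch. Inv1n is known from wild teosinte populations and as rare or absent in maize. The labels do not say which of the teosinte inbreds carry it, and no inbred was assigned an arrangement here.

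The study sequenced RNA of immature ear, seedling leaf and seedling stem (with the shoot apical meristem) from maize inbreds, teosinte inbreds and their F1 hybrids. In an F1 both alleles of a gene share the same cells, so reads of the maize and teosinte allele at a site that differs compare the regulation of each allele in cis. The 6 maize inbreds were B73, CML103, Ki3, Mo17, Oh43 and W22, and the 9 teosinte inbreds were TIL01, TIL03, TIL05, TIL09, TIL10, TIL11, TIL14, TIL15 and TIL25. Maize and F1 ears were single ears, while several ears of 1 teosinte plant were pooled because of their small size.

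B73 was crossed with TIL01, TIL03, TIL05, TIL09, TIL11, TIL14 and TIL25. CML103 was crossed with TIL03, TIL11 and TIL14, and Ki3 with TIL03, TIL09, TIL11 and TIL14. Mo17 was crossed with TIL01, TIL09 and TIL14. Oh43 was crossed with TIL01, TIL03, TIL09, TIL10, TIL11, TIL15 and TIL25, and W22 with TIL01, TIL03, TIL11, TIL14 and TIL25. TIL05, TIL10 and TIL15 each entered 1 cross, and every teosinte inbred is 1 line, so values of crosses that share an inbred are not independent. All plants were untreated. The 29 crosses gave 172 F1 libraries, 59 of ear (28 crosses, as Mo17_TIL01 had none), 57 of leaf and 56 of stem, and the inbreds gave 88 libraries.

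The F1 libraries held 815215 to 3181176 allele-assigned reads. Between 24465 and 174008 of the reads of a cross and tissue fell in the region. The tissue labels were checked with marker genes: kn1, a homeobox gene of meristems, stood at 209 RPM (per assigned reads of the tissue) in ear, 85.2 in stem and 0.297 in leaf, and pep1, the phosphoenolpyruvate carboxylase of C4 photosynthesis, at 1009 in leaf, 0.043 in ear and 0.862 in stem.

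Of the 6 libraries labelled B73_TIL01, 3 stood apart. The maize allele took 47.9 to 53.6% of the reads in every F1 library of the other crosses. It took 80.7% in the leaf library of replicate 1 labelled B73_TIL01, 80.1% in the stem library of replicate 2 and 56.9% in the ear library of replicate 1, against 50.4 to 50.7% in the other libraries of the cross. In the region the shift was smaller: the maize share was 62.2% in that leaf library (95% Wilson interval 61.5 to 62.8%), 60.8% in that stem library (60.2 to 61.3%) and 50.1% in that ear library (49.5 to 50.7%), intervals that cover counting error only. On the rest of chromosome 1 these shares were 82.9%, 82.6% and 58.0%. The reads followed the site list of another inbred. At region sites that B73_TIL25 also lists, the leaf library had a maize share of 53.6%, against 82.1% at the other region sites, and outside the region these shares were 57.5% and 94.5%. For the stem library they were 52.3% and 83.4% in the region and 57.1% and 94.3% outside it. What these libraries hold was not tested. The main F1 ratios below are given with and without them, and the counts of gene calls with and without the whole cross and B73_TIL05. Alternative settings and ratios of single genes keep them unless stated. The site lists, made from genomic reads of the inbreds, do not rest on them.

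The deposited site lists carry the alleles themselves, and a string of them along the chromosome shows how the inbreds differed in the region. In each 2 Mb window of the region, the single-base site with the most F1 reads among those listed in at least 2 crosses of B73 was taken. This gave 25 sites, each in a different gene, between chr1:65222457-113342082, printed in chromosome order with bases on the strand of the transcript. The B73 allele is in lower case, a capital is the teosinte allele where that cross lists the site, and n marks a site the cross does not list, either because the alleles are the same or because genomic coverage was lacking.
B73: gacggaccccaacttaaacccagtc
TIL01: CGGnnnTTnnGnTCnnGTAGAnACn
TIL05: CnnAnnTTTTnGnCnTGTnGnCACn
TIL11: nnGAnnTTnTnGTnCTGTAGACACn
TIL14: nGnAnnTTnTGnTCnTnTAGACnCG
TIL25: CGnAAnTTTTnGTCCTGTAGACACn
TIL03: nnnnACnnnnnnnnnTGnAnnnnCG
TIL09: nnnnnCnnnTnnnnCTGnnGnnnCn

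TIL25 listed 21 of the 25 sites, TIL11 17, TIL14 16, TIL01 and TIL05 15 each, and TIL03 and TIL09 7 each. A site had to be listed in at least 2 crosses, which favours alleles that several inbreds share, so these counts do not measure how many sites differ. Over all region sites the order was another: B73_TIL25 listed 1917, B73_TIL09 1622, B73_TIL03 1472, B73_TIL05 1381, B73_TIL11 1313, B73_TIL01 1190 and B73_TIL14 1159. TIL11 and TIL25 carried the same capital at 16 of the 22 sites that either listed. TIL03 and TIL25 shared 5 of 23, and TIL03 and TIL09 shared 4 of 10. The 25 sites chosen by the same rule in the following 50 Mb (chr1:116022789-164640521) did not separate the inbreds in this way.
B73: gaatcgcttaaccaaagggctaagt
TIL01: AGCCTnnACGnGnGGGnAAnnGnAC
TIL05: nnCCTATnCnGnTGGnnAAnCGnAn
TIL11: AGnCTAnnCGnGTGGnAAnTCGGnn
TIL14: nnCCnnTnCGnGnnnGnAnTnGGAC
TIL25: nnnnnAnACGnGnGGGAAAnCnGAC
TIL03: AnCCnnnnCGnGTnGnAAnTnGnAn
TIL09: nnCCTnnnCnGGTGGnAAAnCGnAn

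There every inbred listed 13 to 17 sites. TIL11 and TIL25 shared 10 of 22 capitals, TIL03 and TIL25 7 of 21, and TIL03 and TIL09 10 of 18.

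Over all sites, pairs of teosinte inbreds were either more alike or less alike in the region than on the rest of the chromosome, and each pair moved in 1 direction with every maize inbred it was crossed to. Sharing was measured as the percent of the sites listed in either of 2 crosses with 1 maize inbred that both listed with the same teosinte allele. Over the 64 pairs of crosses, sharing ran from 5.98 to 40.4% in the region (median 10.2%) and from 13.5 to 24.1% on the rest of chromosome 1 (median 18.4%). It was higher in the region in 30 pairs and lower in 34, and the ratio of region to rest ran from 0.332 to 2.34. Site lists carry no replicate error and pairs share inbreds, so these values are a description with no test.

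The pairs among TIL01, TIL11, TIL14, TIL15 and TIL25 shared 30.7 to 40.4% of their sites in the region. TIL11 and TIL14 shared 32.5 to 35.5% over 4 maize inbreds, 1.84 to 2.07 times the percent on the rest of the chromosome, and TIL14 and TIL25 had the highest ratio, 2.24 to 2.34 over 2 maize inbreds. The highest sharing in the region was that of TIL15 and TIL25, at 40.4% in crosses of Oh43 against 23.5% on the rest. TIL05, present in a cross of B73 alone, shared 23.4% with TIL01, 24.3% with TIL11, 23.2% with TIL14 and 27.3% with TIL25. Its ratios to them ran from 1.50 to 1.69.

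TIL03, TIL09 and TIL10 lay on the other side. TIL03 and TIL14 had the lowest ratio, 0.332 to 0.386 over 4 maize inbreds, with 6.78 to 9.19% of sites shared in the region and 20.4 to 24.1% on the rest. TIL09 and TIL14 shared 5.98 to 8.46% and TIL03 and TIL11 6.75 to 8.96%. TIL10 shared 8.33% with TIL01 and 8.61% with TIL11. Among themselves these inbreds did not fall below the rest of the chromosome: TIL03 and TIL09 shared 16.2 to 20.6% in the region against 14.7 to 18.4%, TIL03 and TIL10 21.0% against 19.5%, and TIL09 and TIL10 21.9% against 20.6%.

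**Figure D1:**
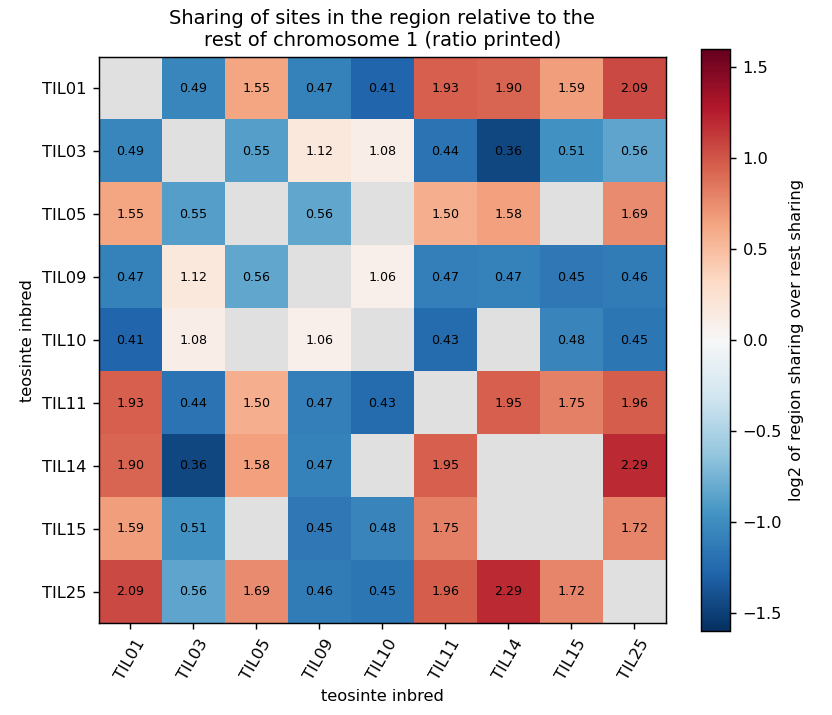
Ratio of site sharing in the region to that on the rest of chromosome 1 for each pair of teosinte inbreds (both axes), averaged over the maize inbreds both were crossed with. Colour is log2 of the ratio, red where sharing was higher in the region and blue where it was lower, and grey cells are pairs with no common maize inbred. The ratios of TIL01, TIL11, TIL14, TIL15 and TIL25 among themselves lie at or above 1.59, and those of TIL03, TIL09 and TIL10 with all other inbreds at or below 0.562.

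The pairs spread more widely in the region than in other windows of its size. The SD over the 64 pairs of log2 of the ratio to the rest of the chromosome was 0.993 in the region and 0.154 to 0.274 in the 4 other 50 Mb windows between 15 and 265 Mb. For some pairs the change came at or near the borders. In crosses of B73, TIL11 and TIL14 shared 18.2% of 429 sites from 60 to 65 Mb and 39.0% of 323 sites from 65 to 70 Mb. At the far end they shared 38.2% from 105 to 110 Mb, 16.9% in the last 5 Mb of the region and 10.3% in the 5 Mb after it. TIL03 and TIL11 moved the opposite way, from 17.4% just before the region to 6.79% in its first window, and from 5.15% in its last window to 25.1% after it. The last 5 Mb were not alike for these pairs in crosses of B73: sharing of TIL11 and TIL14 had already fallen there, while that of TIL03 and TIL11 had not yet risen. TIL05 and TIL11 went from 19.3 to 28.7% at the start, but from 32.6 to 11.6% before the last 5 Mb, with 13.4% after it. TIL03 and TIL09 had no such step at the start (14.8 and 15.6%) and shared most from 100 to 105 Mb (28.9%).

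Over 5 Mb windows, the SD of log2 sharing between pairs was 0.711 to 1.22 in the 10 windows of the region (median 0.97) and 0.19 to 0.99 in the 51 windows outside it (median 0.319). The windows overlapped in this measure. The window outside with 0.99 was that from 130 to 135 Mb, where a pair of crosses listed a median of 132 sites. That from 185 to 190 Mb, with a median of 289 sites, had 0.762.

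**Figure D2:**
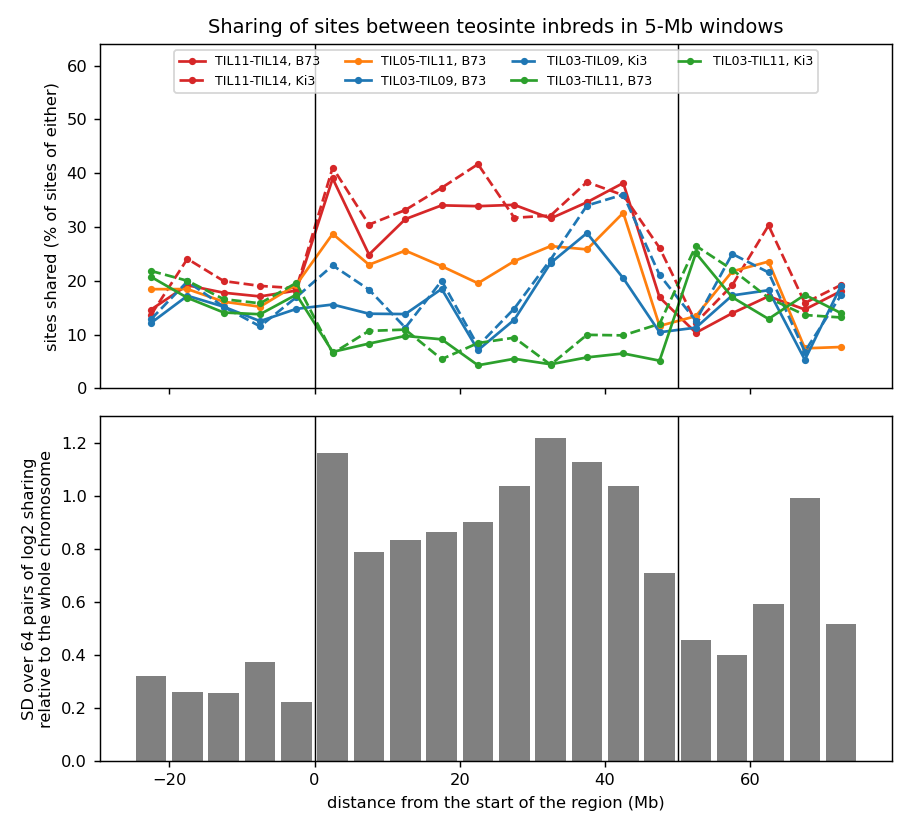
Site sharing in 5 Mb windows against the distance from the start of the region. Top, percent of sites shared by 4 pairs of teosinte inbreds in crosses of B73 (solid) and Ki3 (dashed). Bottom, SD over the 64 pairs of log2 sharing relative to the whole chromosome. Vertical lines mark the borders of the region, where the curve of TIL11 and TIL14 rises from 18.2 to 39.0% and that of TIL03 and TIL11 falls from 17.4 to 6.79%.

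Among the combinations of inbreds that shared a site, those with the most region sites for each maize inbred were compared with the rest of the chromosome. This choice by itself favours a larger percent in the region. Some of them held a larger percent there and others a smaller one. Of the 2135 region sites that 2 or more crosses of B73 listed with 1 teosinte allele, 233 (10.9%) were in TIL03 and TIL09 alone, 129 (6.04%) in TIL01, TIL11, TIL14 and TIL25 alone, and 125 (5.85%) in those and TIL05. On the rest of the chromosome these combinations held 1.84, 0.452 and 0.392% of 18136 shared sites. With Oh43, TIL01, TIL11, TIL15 and TIL25 alone held 278 of 2371 shared sites (11.7%, against 0.419% on the rest), and TIL03, TIL09 and TIL10 alone held 144 (6.07% against 0.606%). With W22, TIL01, TIL11, TIL14 and TIL25 alone held 272 of 1504 (18.1% against 3.46%). With Ki3, TIL11 and TIL14 alone held 450 of 1166 (38.6% against 8.17%), and TIL03 and TIL09 alone held 311 (26.7% against 8.94%). Sites in TIL03, TIL09, TIL11 and TIL14 together went the other way with Ki3 (6.69% against 12.4%). With CML103, TIL11 and TIL14 alone held 62.1% against 19.8%, and TIL03 and TIL14 alone 9.47% against 28.6%. Where 2 crosses listed the same position, the teosinte alleles were different at 0.839% of 27176 region sites summed over pairs and at 1.28% of 239623 other sites.

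The inbreds also differed in how many genes of the region held a listed site. Listing needs genomic coverage in both parents, so this is not a count of all genes that differ from maize. A cross listed 1085 to 2114 sites in the region, or 9.28 to 12.1% of its chromosome 1 sites, at 21.7 to 42.3 sites per Mb. They lay in 237 to 266 genes in crosses of TIL01, 244 to 261 of TIL14, 268 to 295 of TIL11, 306 to 355 of TIL25, 358 of TIL05 and 398 of TIL15. The numbers were 373 to 461 for TIL03, 422 to 521 for TIL09 and 486 for TIL10, and TIL15 overlapped with TIL03. A gene with a site held 4.36 to 4.61 sites in crosses of TIL01, TIL11 and TIL14 (3.21 to 3.62 on the rest of the chromosome). TIL15 and TIL25, with 5.31 and 5.40 to 5.53, were highest on the rest as well, with 4.21 and 4.33 to 4.36. TIL05 had 3.86 against 3.49. TIL03 had 3.19 to 3.54 against 3.29 to 3.41, while TIL09, with 3.03 to 3.31 against 3.68 to 3.76, and TIL10, with 3.64 against 3.94, were below the rest.

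The region's share of the chromosome 1 genes with a site was 7.01 to 8.37% in crosses of TIL01, TIL11, TIL14 and TIL25, 8.81% in TIL05 and 9.79% in TIL15. It was higher in every cross of TIL03 (median 11.4%), TIL09 (median 11.6%, up to 12.1%) and TIL10 (11.6%). The teosinte inbred accounted for nearly all of its variance over crosses (R2 0.986) and the maize inbred for little (R2 0.0617), while in the 4 other 50 Mb windows the R2 of the teosinte inbred was 0.668 to 0.841. For the share of sites the contrast was smaller, with 0.92 in the region and 0.449 to 0.884 in the other windows. TIL05, TIL10 and TIL15 have 1 cross each and are fitted exactly, which raises R2 in every window. Reads at the sites differed as well. Between 118 and 531 region sites of a cross had no F1 read, and the percent with at least 10 reads ran from 50.6% in B73_TIL03 to 80.8% in B73_TIL14, compared with 57.6 to 67.3% on the rest.

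**Figure D3:**
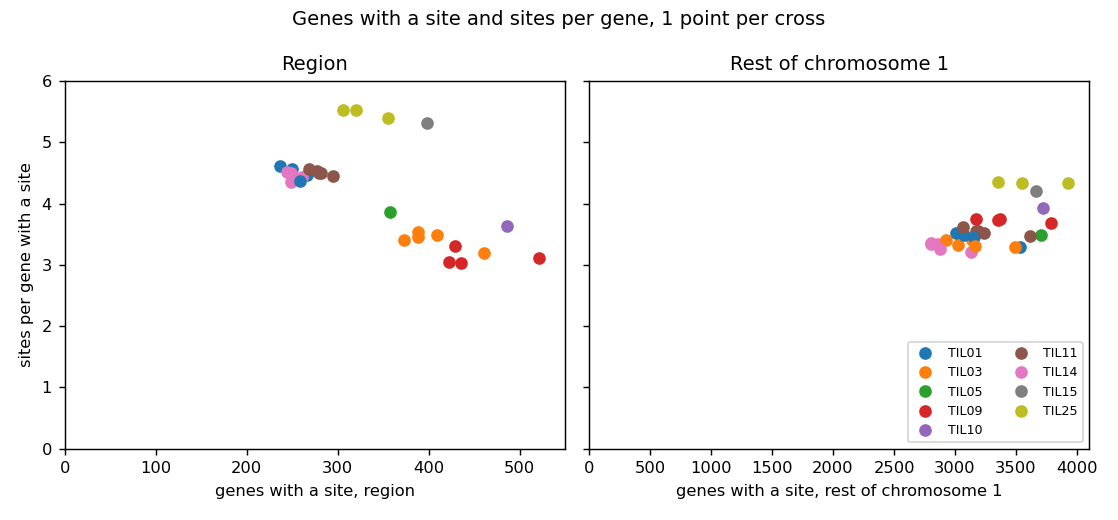
Sites per gene with a site (vertical axis) against the number of genes with a site (horizontal axis, scaled separately), 1 point per cross, coloured by teosinte inbred, in the region (left) and on the rest of chromosome 1 (right). In the region the crosses of TIL01, TIL11 and TIL14 have 237 to 295 genes at 4.36 to 4.61 sites each, and those of TIL03 and TIL09 have 373 to 521 genes at 3.03 to 3.54.

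The maize side was more uniform against some teosinte inbreds than others. For 2 maize inbreds crossed with 1 teosinte inbred, the percent of sites shared measures how far the maize inbreds carry the same allele where they differ from that teosinte. With TIL01, TIL11, TIL14 or TIL25 as the common parent, pairs of maize inbreds shared 59.6 to 70.2% of region sites, above the rest of the chromosome in every pair. With TIL03 they shared 32.1 to 46.0% (33.7 to 45.4% on the rest), and with TIL09 32.4 to 44.9% (35.7 to 43.6% on the rest). Oh43 and W22 with TIL03 had the lowest ratio to the rest, 0.791, and Ki3 and W22 with TIL14 the highest, 1.85.

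In crosses of the maize inbreds other than B73, the base that teosinte carried could also be compared with the reference. TIL01, TIL11, TIL14, TIL15 and TIL25 carried the reference base at 13.1 to 21.5% of the single-base sites of the region, below the 26.3 to 40.5% of the rest of the chromosome in the same crosses. The percent was 32.4 to 46.7% in TIL03 (median 41.3%, against 38.0% on the rest) and 29.5 to 40.7% in TIL09 (median 35.9%, against 37.5% on the rest), and these ranges overlapped with those of the rest. TIL10, with 28.6% against 35.9%, was below the rest too. Over all crosses, single-base sites were a median of 94.6% of region sites (90.4 to 95.7%) and 90.9% on the rest (90.0 to 92.1%), and transitions were a median of 66.2 and 66.6% of them.

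The F1 allele ratio of the region lay close to that of the rest of chromosome 1. For each gene with at least 20 reads in a cross and tissue the log2 ratio of maize to teosinte reads was taken, and the median of the 134 to 208 region genes was compared with that of the rest in the same cross. Crosses were averaged within a teosinte inbred. Region minus rest was -0.04 ± 0.07 for ear, -0.02 ± 0.09 for leaf and -0.07 ± 0.06 for stem (mean ± SD, n = 9 inbreds). By a two-sided exact sign-flip permutation test the stem value was below 0 (p = 0.00781, adjusted p = 0.0234 over 3 tissues, 8 of 9 inbreds below 0), and the ear (adjusted p = 0.211) and leaf (adjusted p = 0.465) values did not pass. In stem, the replicates of a cross differed in this value by a median of 0.0363.

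The inbreds spread on both sides of 0. In stem, TIL01 stood at -0.18, TIL15 at -0.12, TIL09 at -0.10, TIL25 at -0.06, TIL10 at -0.06, TIL11 at -0.04, TIL14 at -0.04, TIL05 at -0.0038 and TIL03 at 0.0027. The lowest value rests on the libraries that stood apart: without them, TIL01 was -0.04, the mean of the 9 inbreds was -0.05 ± 0.04 and the adjusted p was again 0.0234. In ear TIL05 (0.11) and TIL03 (0.02) were above 0, TIL01 (-0.13, or -0.04 without the library that stood apart) and TIL09 (-0.12) lowest. In leaf TIL05 was highest at 0.17 and TIL01 lowest at -0.15, or -0.04 without that library. Without the libraries that stood apart the mean was -0.03 in ear and -0.01 in leaf (adjusted p = 0.281 and 0.703). The stem call was lost in the same test with reads summed over all sites (-0.05, adjusted p = 0.539). It was also lost without replicate 1 (-0.10, adjusted p = 0.152) and without replicate 2 (-0.04, adjusted p = 0.205). The difference taken within each library did not pass either (replicate block, -0.07, adjusted p = 0.105). Except without replicate 2, these settings kept the stem library that stood apart, which by itself stood at -2.07. Without replicate 1 it was the only stem library of B73_TIL01. These settings were not repeated without it.

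Within sequencing pools, which are nearly nested within tissues, the mean over stem libraries was -0.04, -0.03 and -0.03 in pools 10, 11 and 12 and 0.0021 in the 4 stem libraries of pool 6. It was -0.21 ± 0.54 (SD, n = 14 libraries) in pool 13, which holds the stem library that stood apart, and -0.06 ± 0.04 in its other 13 libraries. Pool means ran from -0.09 to 0.0058 in ear and from -0.17 to -0.03 in leaf, or from -0.07 to 0.0058 and from -0.05 to -0.01 without the libraries that stood apart. The difference between tissues in region minus rest did not pass either (ear minus leaf -0.01, ear minus stem 0.03, leaf minus stem 0.04; exact sign-flip permutation tests, adjusted p = 0.449, 0.264 and 0.264, or 0.258 for each without the libraries that stood apart). Along the region in 10 Mb steps, the stem value was lowest from 95 to 105 Mb, at -0.12 ± 0.09 with 9 of 9 inbreds below 0, and was -0.0097 in the first step and -0.003 in the last. Without the stem library that stood apart these values were -0.10 ± 0.06 (9 of 9 below 0), 0.0058 and 0.0073.

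**Figure D4:**
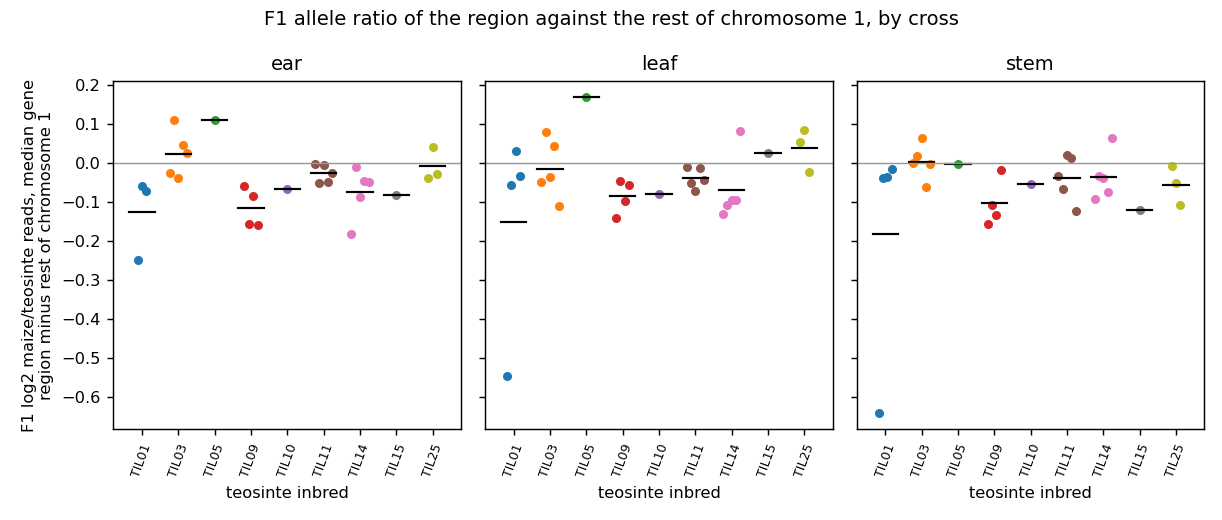
Region minus rest of chromosome 1 of the median log2 ratio of maize to teosinte reads in F1s (vertical axis), by teosinte inbred (horizontal axis) and tissue (panels). Each point is a cross and each bar the mean of the crosses of an inbred. The mean over 9 inbreds is -0.04 for ear, -0.02 for leaf and -0.07 for stem, and the lowest points in leaf and stem, at -0.55 and -0.64, are B73_TIL01, which contains the libraries that stood apart.

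The teosinte inbred explained more of the variance of region minus rest in ear (R2 0.595, 28 crosses) than the maize inbred (R2 0.111), but neither passed (permutation tests, adjusted p = 0.0833 and 0.718 over 6 tests). Without the library that stood apart R2 was 0.614 with an adjusted p of 0.043. In leaf and stem the R2 of the teosinte inbred was 0.324 and 0.231 (adjusted p = 0.718 for both), and 0.516 and 0.381 without the libraries that stood apart (adjusted p = 0.188 and 0.363).

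The inbred parents gave the same measure in libraries that the F1 values did not use. Parent ratios include trans effects, and each parent's reads serve several crosses. The 9 teosinte inbreds were thus set against shared maize libraries, whose error can move several of them together. Sign flips treat the inbreds as independent, so the p-values below do not cover this. The maize inbred explained more variance over crosses than the teosinte inbred for leaf (R2 0.635 against 0.335) and stem (0.585 against 0.473). For ear the maize inbred explained less (0.16 against 0.7). Region minus rest was -0.09 ± 0.07 in ear (8 of 9 inbreds below 0, two-sided exact sign-flip permutation test, adjusted p = 0.0352), 0.04 ± 0.05 in leaf (adjusted p = 0.0762) and -0.04 ± 0.09 in stem (adjusted p = 0.238). The ear call was lost with reads summed over all sites (-0.02, adjusted p = 0.543) and without replicate 1 (-0.08, adjusted p = 0.082). The leaf value changed sign with summed reads (-0.09, adjusted p = 0.0234) and without replicate 2 (-0.02, adjusted p = 0.0117), and in the opposite direction it passed both times. TIL05 was the inbred above 0 in ear (0.03), and it had the highest leaf value (0.14).

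For single genes, maize and teosinte reads were compared over crosses by edgeR's quasi-likelihood test with the cross as block, fitted on all genes and called at a Benjamini-Hochberg adjusted p of 0.005. Crosses that share a parent were treated as independent, so these p-values are too small to that extent. In ear, 263 region genes had at least 100 reads. The maize allele was higher in 9 (3.42%, against 2.32% of the 17679 genes tested in all) and the teosinte allele in 14 (5.32% against 1.33%). Together they were 8.75% of the genes tested, against 3.65% in all. In stem, 7 of 282 were higher for maize (2.48% against 2.02%) and 9 for teosinte (3.19% against 0.986%), or 5.67% together against 3.0%, and with TMM factors the counts were 5 and 11. In leaf, 2 of 289 were higher for maize (0.692% against 2.04%) and 8 for teosinte (2.77% against 0.879%), or 3.46% together against 2.92%. The share with the teosinte allele higher was thus above the background in each tissue, and the share with the maize allele higher was below it in leaf. With DESeq2 the leaf share with the maize allele higher was instead above it (5.88% against 3.94%). The median log2 ratio of region genes was -0.0036, 0.01 and 0.01 in ear, leaf and stem, and that of all genes 0.04, 0.07 and 0.06. The difference in shares was not tested, and without replicate 2 the ear counts were 5 and 5. Without B73_TIL01 and B73_TIL05, 20 region genes were called for ear, 10 for leaf and 16 for stem, against 23, 10 and 16 with them. These were partly other genes: 16 of the 23 ear calls, 9 of the 10 leaf calls and 14 of the 16 stem calls were kept. The teosinte allele was then higher in 5.04, 2.82 and 3.58% of region genes in ear, leaf and stem (1.33, 1.01 and 1.04% of all genes). The maize allele was higher in 2.71, 0.704 and 2.15% (1.89, 1.72 and 1.7% of all genes).

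Of the 909 region genes, 315 were tested in at least 1 tissue and 31 were called in at least 1 (9.84%, against 5.85% of 19903 genes in all). Of these, 7 were called in all 3 tissues (2.22% against 0.844%), 4 in 2 (1.27% against 1.16%) and 20 in 1 (6.35% against 3.85%), and none was called in both directions. A gene called in 1 tissue is not shown to differ from the others.

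Among the genes named by rule, the lowest adjusted p in ear and leaf was that of cgs1 (GRMZM2G075153, sites at chr1:65036624-65040072, at the near border of the region), which encodes cystathionine gamma-synthase, an enzyme of methionine synthesis. The teosinte allele was higher in all tissues. In ear, reads summed over crosses were 4342 for maize and 6457 for teosinte, and the log2 ratio of the 27 crosses with at least 20 reads ran from -1.17 to 0.15 (median -0.64), with 2 above 0. In leaf the sums were 7560 and 13931, and 28 crosses ran from -1.99 to 0.03 (median -0.90), with 1 above 0. In stem they were 8090 and 11789, and the crosses ran from -1.67 to 0.08 (median -0.60), with 1 above 0. The fitted log2 ratio was -0.58 ± 0.07 (SE) for ear, -0.91 ± 0.11 for leaf and -0.65 ± 0.09 for stem (edgeR adjusted p = 4.48e-06, 1.09e-06 and 8.43e-06). In leaf the mean of the crosses of TIL03 was -1.42 and that of TIL11 -0.32. Parent ratios of the gene were taken relative to the median gene on the rest of chromosome 1 in the same cross. They were below 0 in 9 of 9 teosinte inbreds in ear and leaf and in 8 of 9 in stem. The calls held under all 7 alternatives in each tissue.

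Other genes with the teosinte allele higher have no function given in the files or the reference table used. GRMZM2G171022 (sites at chr1:74046302-74047798) had 661 maize and 1478 teosinte reads for ear, 711 and 1117 for leaf and 654 and 1349 for stem, with 2 of 21, 2 of 22 and 1 of 22 crosses above 0. Its fitted log2 ratios were -1.18 ± 0.16, -0.68 ± 0.13 and -1.17 ± 0.17 (edgeR adjusted p = 1.74e-05, 0.00101 and 4.65e-05). GRMZM2G072117 (chr1:99988856-99993096) was called in all 3 tissues as well, at -0.37 for ear, -1.04 for leaf and -0.62 for stem, with 0 of 21 leaf crosses above 0. GRMZM2G157878 (chr1:101777434-101779019) stood at -0.67, -0.72 and -1.03, and its ear and leaf calls held in 3 of 7 alternatives. On the relative scale used for the parents of cgs1, the median parent ratio of all 3 was below 0 in each tissue. The medians nearest to 0 were those of GRMZM2G171022 in leaf (-0.05, 5 of 8 inbreds below 0) and GRMZM2G157878 in ear (-0.14, 4 of 5).

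Some genes were called in part of the tissues. GRMZM2G478212 (chr1:105460808-105471727) had 130 maize and 384 teosinte reads in ear and 327 and 890 in stem, with 0 of 9 and 1 of 20 crosses above 0 and fitted values of -1.79 ± 0.26 and -1.49 ± 0.22 (edgeR adjusted p = 2.27e-05 and 2.82e-05). In leaf, with 4662 and 5248 reads, 13 of 29 crosses were above 0 and the fitted value was -0.27 ± 0.17 (adjusted p = 0.376). GRMZM2G057768 (chr1:84671541-84673819) was called in leaf at -0.71 and stood at -0.26 in ear and -0.44 in stem. GRMZM2G037630 (chr1:71580724-71587233) was called in stem at -0.84 and stood at -0.25 in ear and -0.45 in leaf. The difference between tissues was not tested for these genes. On the relative scale above, the median parent ratios in ear, leaf and stem were -3.78, -0.04 and -3.71 for GRMZM2G478212. They were -0.56, -1.03 and -1.02 for GRMZM2G057768, and 0.33, -0.50 and -0.83 for GRMZM2G037630.

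Among the genes with the maize allele higher, GRMZM2G033930 (chr1:111589388-111591423) had 3622 maize and 1572 teosinte reads in stem, and 28 of 29 crosses were above 0, from -0.43 to 3.97 (median 1.27). Its fitted stem value was 1.38 ± 0.18 (edgeR adjusted p = 6.01e-06), and it stood at 0.48 in ear and 0.86 in leaf (adjusted p = 0.0249 and 0.0071). The inbreds differed widely: the stem mean was 3.97 in TIL05 and 2.66 in TIL09, and 0.12 in TIL14. GRMZM2G056944 (chr1:65352591-65353890) was called in stem at 0.52, with 23 of 26 crosses above 0, and stood at 0.10 in ear and 0.17 in leaf.

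GRMZM2G460988 (chr1:75069803-75072448) had 974 maize and 335 teosinte reads in stem, and all 22 crosses with at least 20 reads were above 0, from 0.23 to 3.20 (median 1.47). The fitted value was 1.29 ± 0.21 in stem (edgeR adjusted p = 8.27e-05) and 0.63 in ear and 0.72 in leaf (adjusted p = 0.0241 and 0.0307, not called). Its alleles are shown because 4 inbreds carried nearly the same set of them. These are the 16 single-base sites of the gene that at least 2 crosses of B73 listed (chr1:75069976-75072052), in chromosome order and with letters as above.
B73: ggagagccgaggcgaa
TIL01: AAGAGATTACAnnnCG
TIL11: nAGAGATTACAAnnnn
TIL14: AAGAGATTACAAAACG
TIL25: nnGAGATTACAAAACG
TIL05: nnnnGATnnnnnnnnn
TIL03: nnnnnnTnnnnnnnnn
TIL09: nAGAnnnTnnnnnnnn

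TIL14 listed all 16 sites, TIL25 14, TIL01 13 and TIL11 11, while TIL09 listed 4, TIL05 3 and TIL03 1. TIL05, which shared more with the first 4 over the whole region, thus listed few sites in this gene, as TIL03 and TIL09 did. Its 3 capitals were those that the first 4 carried, and none was shared with TIL09. The mean stem ratio was 1.84 in TIL01, 1.46 in TIL11, 1.77 in TIL14 and 1.85 in TIL25. That of TIL01 is over 3 crosses, from 0.76 to 2.78, and was not taken without the stem library that stood apart. For TIL09 and the inbreds with 1 such cross the values were as follows. The mean stem ratio of TIL09 was 1.11, and the 1 cross with at least 20 reads of TIL05, TIL15 and TIL03 stood at 2.10, 0.41 and 0.39. Crosses of 1 inbred ranged widely, from 0.23 to 3.20 in TIL14, and those of TIL09 (0.91 to 1.35) lay within that range.

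**Figure D5:**
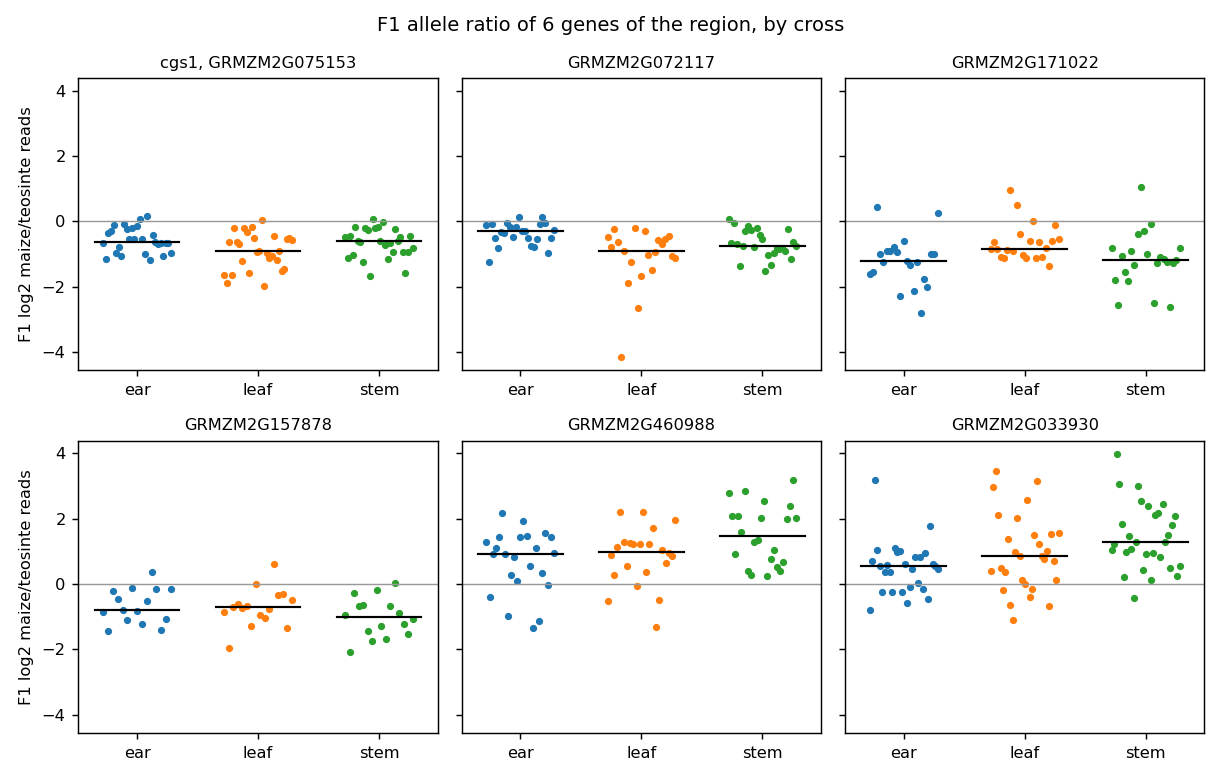
Log2 ratio of maize to teosinte reads in F1s (vertical axis) of 6 genes of the region in ear, leaf and stem (horizontal axis). Each point is a cross with at least 20 reads and each bar the median over crosses. The medians of cgs1 are -0.64, -0.90 and -0.60, and all 22 stem points of GRMZM2G460988 lie above 0.

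The remaining genes that the rule named were called toward maize in 1 tissue. In ear these were GRMZM2G394403 (0.61, 22 of 27 crosses above 0), GRMZM2G382717 (0.51, 21 of 27), GRMZM2G074138 (0.87, 18 of 19) and GRMZM2G071688 (2.49, 3 of 4 crosses). In leaf it was GRMZM2G004736 (0.33, 25 of 29), and in stem GRMZM2G046480 (1.40, 4 of 5). The call of GRMZM2G382717 held in 3 of 7 alternatives. GRMZM2G071688 had 215 maize and 61 teosinte reads in ear, and GRMZM2G046480 had 248 and 101 in stem.

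Few region genes had a known name. Of the 909, 290 had an identifier in the RefSeq table and 3 of those a symbol: CPPS2, an ent-copalyl diphosphate synthase of terpenoid synthesis, aoc1, the allene oxide cyclase of jasmonate synthesis, and CNR4, of the cell number regulator family. No allele of theirs had more than 34 reads in any tissue, and none reached the minimum for the test. The members of 4 families were taken from the older names in that table, 15 genes in all: glutathione transferases, which join glutathione to toxic compounds (gst14, gst30, gst37, gst38, gst39 and gst42), beta expansins, which loosen the grass cell wall (expB2, expB6 and expB7), cystatins, inhibitors of cysteine proteases (cc6, cc7 and cc8), and jasmonate genes (aoc1, MYC2a and TIFY6). Of these, 3, 5 and 4 were tested in ear, leaf and stem, and edgeR called 0, as did DESeq2. At an unadjusted p under 0.05 there were 0, 3 and 1, while 24.9, 23.5 and 24.3% of all genes tested were under 0.05. TIFY6, a repressor of the jasmonate response, had 10276 maize and 7265 teosinte reads in stem, with 16 of 25 crosses above 0 (0.46 ± 0.16, edgeR adjusted p = 0.0608). MYC2a, the factor that such repressors bind, stood at -0.15 ± 0.62 in stem. The leaf counts of gst39 were 245 for maize and 22 for teosinte, with all 4 crosses of 20 reads above 0 (edgeR adjusted p = 0.099).

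Crosses of 1 maize inbred were also compared gene by gene. Pearson's r was taken across the region genes with at least 100 reads in both crosses, 40 to 124 genes. Its median was 0.35 for ear, 0.29 for leaf and 0.46 for stem, against 0.35, 0.30 and 0.32 on the rest of the chromosome. Pearson's r was higher in the region in 35 of 62 pairs for ear, 28 of 64 for leaf and 46 of 64 for stem, and without the libraries that stood apart in 33, 28 and 46. With a minimum of 20 reads the region medians were 0.38 for ear, 0.33 for leaf and 0.36 for stem, so the stem median depended on the minimum. Genes are not independent replicates and both crosses share the maize parent, so r is a description with no test.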

How the data were processed

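RNA-seq read counts were deposited by the authors as 1 line per transcript and segregating site, for each of 448 deposited samples (each F1 library on 2 lanes). An F1 file pairs a maize-allele count with a teosinte-allele count at each site, and an inbred file counts that inbred's reads. Per the labels and methods, strand-specific reads were aligned with Bowtie, perfect alignments only, to combined transcriptomes of both parents built from B73 AGPv2, at sites with a genomic coverage of at least 4 in both parents. Counts were not normalized. The site list of a cross is the same in all its libraries and includes sites without reads. As alignments were perfect and sites come from B73 gene models, sequence that diverged further or is lacking in B73 is not counted.

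Lanes were summed, each position of a gene was counted once, and libraries were summed per cross. Gene ratios used a minimum of 20 reads (100 for the correlation between crosses) and a pseudocount of 0.5 per allele. Crosses were averaged per teosinte inbred and tested by exact sign-flip permutation over 9 inbreds (smallest possible p 0.0039), and parent effects with 100000 permutations. Alleles were tested with edgeR 4.0.16 (R 4.3.3), with equal library sizes for both alleles of a cross, genes of at least 100 reads and a trended dispersion from 1 of every 8 genes, and with DESeq2 1.42.0. Scripts were tested on simulated data. The p-values of allele ratios cover the spread between inbreds or crosses, which share parents. Labels call the replicates biological, and the plants behind them were not further described.

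Named genes were, per tissue, the 4 region genes with the largest log2 ratio in each direction among those called with at least 100 reads and sites in 15 crosses of 3 maize and 5 teosinte inbreds, and those with a symbol. Gene positions are the spans of their sites, and exon or UTR annotation was not used. Members and lists were chosen with earlier results of these data known, and the 4 families after the files were opened. The alternatives added after seeing the data were the sharing over genes with sites in both crosses and the F1 ratio results without the 3 libraries labelled B73_TIL01 that stood apart. The crosses Mo17_TIL25 and CML103_TIL25 (8 libraries) are not among the study's crosses and were left out. Both libraries of Oh43_TIL10 in ear carry replicate number 1.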

Additional observations from a re-analysis of the deposited data

Results flagged for a closer look

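Among 42 groups of 4 to 10 values of region minus rest, 3 held a value farther from the others than Dixon's 95% limit, which chance passes in about 1 in 20 groups. In F1 stem, B73_TIL01 stood at -0.64 among the crosses of B73. This cross contains the stem library of replicate 2 with 80.1% maize reads, and without that library its value was -0.09. In the parents, Ki3 stood at -0.11 in leaf and CML103 at 0.21 in stem among the means of the maize inbreds.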

How the results depend on the processing

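The median share of chromosome 1 sites that lay in the region, 10.2%, was 11.9% over sites with at least 10 F1 reads, 7.89% for the span from 70 to 110 Mb and 25.9% when set against the 50 Mb on either side alone. Between 28 and 30 of 64 pairs had higher sharing in the region under every alternative, including that over genes with sites in both crosses (30), which was added after seeing the data. The F1 stem difference no longer passed with summed reads (-0.0472), a minimum of 100 reads (-0.0635), or the maize inbred as unit (-0.0577, with all 6 inbreds below 0, where the smallest p that 6 inbreds allow is 0.0312 and passes the adjustment only if reached in at least 2 of the 3 tissues), and without 1 replicate it ran from -0.098 to -0.0362. In ear it passed without B73_TIL01 and B73_TIL05 (-0.0525, adjusted p = 0.0352) and with the cross as unit (-0.0467), as it did in leaf with the cross as unit (-0.0465), where crosses that share a parent count as independent. The parent ear value was -0.0199 with summed reads and ran from -0.0842 (which did not pass) to -0.0771 without 1 replicate, and the parent leaf value turned to -0.0913 with summed reads and ran from -0.0241 to 0.0487 without 1 replicate. The R2 of the teosinte inbred in ear passed with summed reads (0.659), for the region alone (0.716) and without the library that stood apart (0.614, added after seeing the data). The cause of these shifts was not tested. Of the F1 stem settings named here that did not pass, only that without replicate 2 leaves out the stem library that stood apart.

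Counts of region genes called with the maize and the teosinte allele higher were 16 and 21 for ear, 17 and 11 for leaf and 15 and 16 for stem with DESeq2. At a threshold of 0.05 they were 20 and 26, 24 and 15, and 24 and 19. Without a filter on reads, 9 ear genes were teosinte-higher. Without 1 replicate, which leaves fewer reads and crosses, the counts ran from 4 to 5 and 5 to 9 for ear, 0 to 1 and 3 to 4 for leaf, and 4 to 5 and 4 to 8 for stem. The share with the teosinte allele higher was above that of all genes in each tissue under every one of these. The share with the maize allele higher was so in ear and stem, while in leaf it was above with DESeq2 (5.88% against 3.94%), at 0.05 (8.3% against 6.72%) and with the replicate block (7.61% against 5.73%) and below in the others. No gene called in the results changed its sign under any of these. Replicate numbers did not pair libraries of different crosses: the correlation of their deviations had a median of -0.0021 for ear, 0.0012 for leaf and 0.0021 for stem, and 7 of 276, 5 of 351 and 7 of 351 pairs were above 0.1. With the replicate block, in which each library is its own pair of alleles, the counts were 29 and 31 for ear, 22 and 15 for leaf and 24 and 19 for stem, and the F1 stem difference taken within libraries was -0.0684. Of 146 comparisons of a named gene's call with an alternative, 125 kept the call and 21 lost it. Depth limits the calls: 315 of 909 region genes reached 100 reads in any tissue.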

Other observations

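Both crosses left out of the results have allele shares unlike those of the others. The maize allele took 96.3 to 99.4% of the reads in the 4 libraries labelled Mo17_TIL25 and 31.1 to 31.9% in the 4 labelled CML103_TIL25. Outside the region, the widest spread of sharing between pairs on chromosome 1 was from 130 to 135 Mb, where sharing ran from 3.10 to 46.9% over the 64 pairs.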
